A study of Mus musculus with 12 samples.

Results

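The 4 genes described here, Gja1, Gjb2, Gjb6 and Gjb5, encode the connexins Cx43, Cx26, Cx30 and Cx31.1 of the epidermis. They were chosen by name, among 20 connexin genes in a table of 56923 genes, and all 4 had enough reads to be tested. RNA was sequenced from back skin of 12 mice in 4 groups of 3, and the comparisons ask how each connexin responded to imiquimod (IMQ), a Toll-like receptor agonist that produces psoriasis-like lesions, and whether that response depended on Lcn2. All mice were C57BL/6 females 8 to 10 weeks old, kept free of specific pathogens, and WT and Lcn2-/- mice were littermates. WT IMQ mice and Lcn2-/- IMQ mice received 5% IMQ cream on shaved back skin each day for 6 days. WT control and Lcn2-/- control mice received vehicle cream over the same days, although their labels give the treatment as none.

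The labels name the mutant genotype both a knockout and a knockdown, and reads on Lcn2 were present in every mouse with this label. Lcn2 stood at 11.9 ± 3.57 CPM (reads scaled to a common library size, mean ± SD over 3 mice) in control mice that carry the Lcn2-/- label and at 6.50 ± 2.04 CPM in WT control mice. After IMQ it stood at 38.0 ± 10.5 CPM in the mice labelled Lcn2-/- and at 107 ± 66.5 CPM in WT mice. It was 2.81-fold lower with this label, without overlap but not called (adjusted p = 0.0525 by edgeR). The paper lists Lcn2 among the genes lower in knockout skin after IMQ and also measured it by blot and qPCR. Counts over a whole gene do not show whether a transcript is intact, so the genotype was not settled here. Mice with this label are therefore called mice labelled Lcn2-/- throughout, and every difference between genotypes is a difference between labels. Whole skin was sequenced, so that fewer cells of a type and less RNA per cell cannot be told apart. The extraction label names retina, but 7 retina markers summed to at most 2.91 CPM in any mouse, with Crx and Nrl at 0 in every library, whereas 6 basal keratinocyte markers summed to at least 2838 CPM. Libraries held between 16448226 and 28592110 counted reads.

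Connexins are membrane proteins that assemble as hexamers, and a hexamer of one cell docks with that of a neighbour to form a gap junction channel, through which ions, second messengers and small metabolites pass. Cx43 is the most widely expressed connexin and occurs in keratinocytes and in many dermal cells. Cx26 and Cx30 are scarce in resting interfollicular epidermis, are found in hair follicles, sweat glands and the inner ear, and are known to rise in wounded and psoriatic epidermis. Inherited changes in the human genes for Cx26 and Cx30 cause deafness and disorders of skin and hair. Cx31.1 belongs to differentiating keratinocytes.

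Gjb2 and Gjb6 are neighbours on chromosome 14 of GRCm38, both on the minus strand, at chr14:57098600-57104702 and chr14:57123303-57133611, with 18600 bp between them. Gja3, the lens connexin Cx46, lies beside them at chr14:57034460-57058100. Gjb5 lies at chr4:127354809-127358181 on the minus strand and Gja4, the endothelial connexin Cx37, lies on the same strand at chr4:127311421-127314039. Gja1 lies alone at chr10:56377330-56402513 on the plus strand. The annotation used here for positions places no other gene over any of these 6 genes. The annotation and strand setting behind the counts are not given, so whether other transcripts share their reads was not tested.

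The 250 bases before each start site are shown because 2 of the genes that shared a response, Gjb2 and Gjb6, are neighbours with different promoters. The sequences are from RefSeq on GRCm38.p6 (all 4 genes matched), 5′ to 3′ on the strand of the gene. Motif positions count from the RefSeq start, which differs from the gene bounds given above for Gja1 and Gjb5. The Gja1 window ends before the gene as placed above, and the Gjb5 window covers its first bases. Capitals mark letters that match a searched motif on either strand, and no 2 of these matches overlap.
Gja1, chr10:56377050-56377299, plus strand: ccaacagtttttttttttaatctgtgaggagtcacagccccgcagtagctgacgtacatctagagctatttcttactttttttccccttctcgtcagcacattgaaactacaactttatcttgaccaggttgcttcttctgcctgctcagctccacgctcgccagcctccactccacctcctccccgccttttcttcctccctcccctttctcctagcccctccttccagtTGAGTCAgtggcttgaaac
Gjb2, chr14:57104703-57104952, minus strand: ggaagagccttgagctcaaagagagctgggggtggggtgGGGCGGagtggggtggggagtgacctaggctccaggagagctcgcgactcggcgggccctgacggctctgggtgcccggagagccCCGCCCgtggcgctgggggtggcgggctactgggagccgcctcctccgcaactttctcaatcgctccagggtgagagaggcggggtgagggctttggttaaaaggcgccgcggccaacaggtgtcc
Gjb6, chr14:57133612-57133861, minus strand: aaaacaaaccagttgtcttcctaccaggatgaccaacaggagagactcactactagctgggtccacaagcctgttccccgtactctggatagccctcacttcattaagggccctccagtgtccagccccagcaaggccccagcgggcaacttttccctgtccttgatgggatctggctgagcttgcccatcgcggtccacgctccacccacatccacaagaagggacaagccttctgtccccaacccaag
Gjb5, chr4:127358165-127358414, minus strand: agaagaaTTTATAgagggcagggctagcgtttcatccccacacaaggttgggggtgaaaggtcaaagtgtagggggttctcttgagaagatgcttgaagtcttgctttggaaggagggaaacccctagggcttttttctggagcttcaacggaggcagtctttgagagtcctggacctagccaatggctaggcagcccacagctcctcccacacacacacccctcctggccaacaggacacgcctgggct
The Gja1 window holds 1 match to the AP-1 motif TGANTCA, from base -19 to base -13 before the start, a motif present in 6.75% of 32851 mouse promoter windows of this length. The Gjb2 window holds 2 matches to the GC box GGGCGG, at -211 to -206 and at -126 to -121, where 32.7% of windows hold at least 1, and its GC content is 69.2% against a median of 52.4% over all windows. The Gjb5 window holds 1 match to the TATA box letters TATAAA, at -243 to -238, on the strand opposite to the gene, a motif held by 12.4% of windows. The Gjb6 window holds none of the searched motifs, and none of the 4 windows holds the STAT motif TTCNNNGAA, which 7.02% of windows hold. These matches describe letters and are not evidence of binding.

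Gjb2 and Gjb6 rose with IMQ in WT skin. Gjb6 rose in the mice labelled Lcn2-/- as well, and Gjb5 fell in them, while Gja1 was called in neither genotype. Calls are edgeR quasi-likelihood tests with a Benjamini-Hochberg adjusted p under 0.05 over all 18529 genes tested. In WT mice 2 of the 4 connexins were called higher and none lower after IMQ, where 14.2% of all genes tested were called higher and 14.3% lower. In the mice labelled Lcn2-/- 1 was called higher and 1 lower, where 14.1% of genes were called higher and 11.2% lower. Statements below on whether groups overlap describe these mice only, since the share of all genes without overlap was not counted.

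Gjb6 was the connexin with the larger fold change and the firmer call of the pair. Its levels were 16.1, 4.21 and 11.5 CPM in WT control mice and 298, 142 and 237 CPM in WT IMQ mice. They were 5.75, 31.4 and 17.9 CPM in the control mice labelled Lcn2-/- and 99.7, 89.9 and 168 CPM in the IMQ mice with this label. Every IMQ mouse was above every control mouse of either label. The rise was 21.3-fold in WT mice (log2 fold change 4.41, SE 0.65, adjusted p = 0.0006 by edgeR) and 6.53-fold in mice labelled Lcn2-/- (2.71, SE 0.60, adjusted p = 0.0081 by edgeR).

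Gjb2 was the most abundant of the 4 genes by CPM in WT IMQ mice. Its levels were 202, 9.67 and 122 CPM in WT control mice and 1406, 1060 and 1249 CPM in WT IMQ mice. In the control mice labelled Lcn2-/- they were 26.5, 466 and 206 CPM, and after IMQ they were 595, 613 and 835 CPM. The IMQ and control groups did not overlap in either genotype, but the control mice differed among themselves by up to 48.1-fold. In WT mice the rise was 11.1-fold (log2 fold change 3.48, SE 1.06, adjusted p = 0.0324 by edgeR). In mice labelled Lcn2-/- the estimate was 2.93-fold and was not called (1.55, SE 0.98, adjusted p = 0.272 by edgeR). The WT call depended on single mice: the adjusted p lay between 0.0451 and 0.0994 over the 6 edgeR fits that each left out 1 WT mouse, and it was above 0.05 without WT control mouse 2 or 3 or without any 1 of the 3 WT IMQ mice.

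Gja1 had the highest CPM of the 4 genes in all 6 control mice, and it was the only member whose IMQ and control groups overlapped in a genotype. It stood at 639, 213 and 578 CPM in WT control mice and at 757, 818 and 832 CPM in WT IMQ mice. In the mice labelled Lcn2-/- it stood at 338, 1142 and 619 CPM without IMQ and at 630, 475 and 554 CPM with it. The WT groups did not overlap, with an estimate of 1.68-fold (log2 fold change 0.75, SE 0.42, adjusted p = 0.210 by edgeR). The groups labelled Lcn2-/- overlapped (-0.34, SE 0.42, adjusted p = 0.589 by edgeR), and the sign of that estimate turned to 0.21 without the control mouse at 1142 CPM.

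Gjb5 was the least variable member among control mice, with a highest level 1.49 times its lowest. Its levels were 16.3, 19.3 and 22.7 CPM in WT control mice and 11.5, 15.9 and 13.7 CPM in WT IMQ mice. In the mice labelled Lcn2-/- they were 20.7, 22.3 and 24.2 CPM without IMQ and 14.6, 10.5 and 5.04 CPM with it. The IMQ mice lay below the control mice in both genotypes. The fall was called in the mice labelled Lcn2-/-, where Gjb5 was 2.23-fold lower (log2 fold change -1.16, SE 0.30, adjusted p = 0.0161 by edgeR), although not without control mouse 3 of that label (adjusted p = 0.0512). In WT mice the estimate was -0.50 (SE 0.30, adjusted p = 0.224 by edgeR) and was not called.

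**Figure D1:**
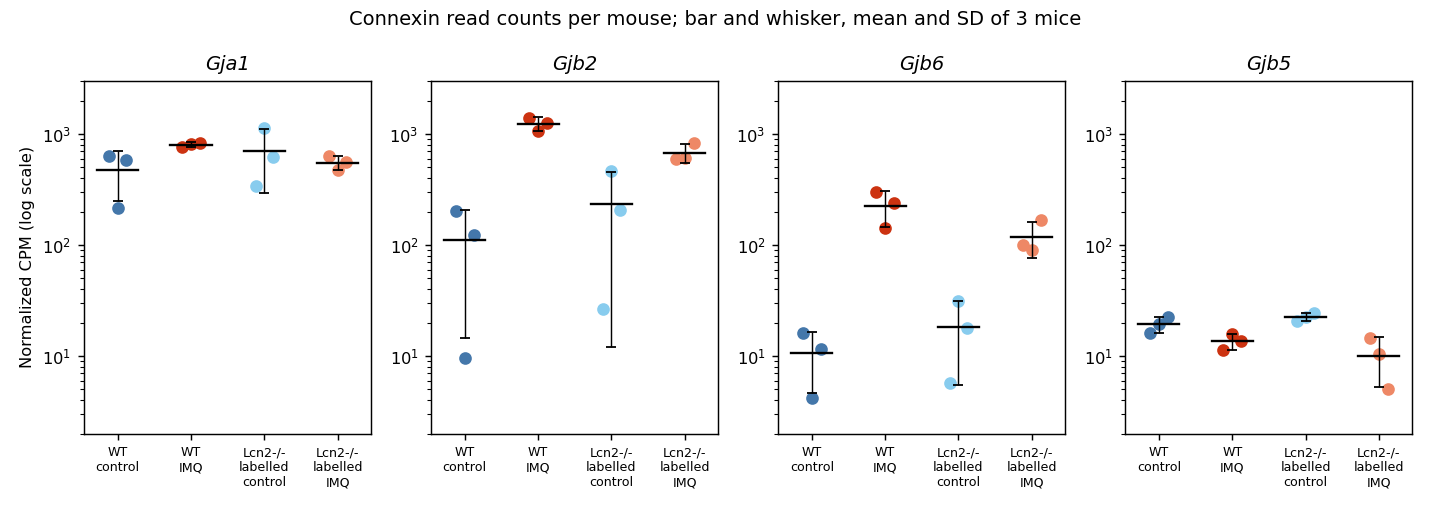
Normalized CPM (log scale) of Gja1, Gjb2, Gjb6 and Gjb5 in each of the 12 mice, with 1 point per mouse and a bar and whiskers for the mean and SD of 3 mice. Gjb2 and Gjb6 sit higher in all 6 IMQ mice than in the control mice, Gjb5 sits lower in all 6, and the control mice spread over 48.1-fold for Gjb2 and 1.49-fold for Gjb5.

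A permutation test without the count model was run with the 2 genotypes combined. IMQ and control labels were exchanged within each genotype in all 400 arrangements, and 0.005 is the smallest p these allow. Any gene whose groups separate in the same direction in both genotypes reaches it. For Gjb2, Gjb6 and Gjb5 the test thus restates the lack of overlap given above and adds no further support. The p values are not adjusted over the members, and the share of all genes at the smallest p was not counted. The mean difference between IMQ and control mice was 3.30 in log2 CPM for Gjb2 (two-sided exact permutation p = 0.005), 3.74 for Gjb6 (p = 0.005 by the exact permutation test) and -0.89 for Gjb5 (p = 0.005 by the exact permutation test). For Gja1 it was 0.36 (exact permutation p = 0.415). Within 1 genotype, 3 mice against 3 allow no p below 0.1.

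Keratinocyte RNA rose with IMQ, as did Gjb2 and Gjb6, whereas Gjb5 was lower in both genotypes and Gja1 was called in neither. The 6 basal keratinocyte markers summed to between 2838 and 4520 CPM in the 6 control mice, to between 15512 and 22672 CPM in WT IMQ mice and to between 9220 and 13119 CPM in the IMQ mice labelled Lcn2-/-. All 6 of these markers were called higher after IMQ in WT mice and 4 of 6 in mice labelled Lcn2-/-, with median log2 fold changes of 1.39 and 0.84 beside -0.02 and -0.05 over all genes. Of 8 suprabasal markers, 6 and 7 were called higher, with medians of 1.95 and 1.37. The 4 keratins of wounded epidermis (Krt6a, Krt6b, Krt16 and Krt17) summed to at most 1230 CPM in any control mouse, to at least 9320 CPM in WT IMQ mice and to at least 4910 CPM in the IMQ mice labelled Lcn2-/-, with median log2 fold changes of 7.15 and 5.25 and 3 of 4 called higher in each genotype. The part of these markers in the connexin differences was not tested.

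Among the 6 control mice, Gjb2 and Gjb6 followed the RNA of the hair follicle. The inner root sheath, the layer that guides the growing hair shaft, was measured by 6 markers (Krt25, Krt27, Krt71, Krt73, Tchh and Gata3). Their sum was 3139, 76.2 and 1778 CPM in WT control mice and 231, 9848 and 4061 CPM in control mice labelled Lcn2-/-. Ranked by this sum, the 6 control mice stood in the same order for Gjb2 and for Gjb6 in 6 of 6 ranks. Gja1 shared 4 of the 6 ranks, and its highest level was 5.36 times its lowest, whereas Gjb5 shared 0. Basal keratinocyte markers spread far less over the same mice, within the 2838 to 4520 CPM given before. Some other marker sums were also lowest in WT control mouse 2, followed by control mouse 1 labelled Lcn2-/-. They were highest in control mouse 2 with this label. In these mice, in this order, the keratins of wounded epidermis summed to 488, 695 and 1230 CPM. For 5 proliferation markers the sums were 197, 539 and 945 CPM, and for 5 melanocyte markers 105, 221 and 646 CPM. Fibroblast markers had another order, with WT control mouse 2 highest at 17321 CPM. In the 6 IMQ mice the inner root sheath markers summed to at most 110 CPM, and Gjb2 stood at 595 CPM or above. Both Gjb2 and Gjb6 were thus low in the 2 control mice with the least inner root sheath RNA, WT control mouse 2 and control mouse 1 labelled Lcn2-/-. The part of follicle RNA, or of the RNA these other markers measure, in the spread among control mice was not tested.

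These 2 mice were also the lowest control mice in Gja1, at 213 and 338 CPM, as well as in Gjb2 and Gjb6. Leaving them out, a choice made after seeing the data, therefore raises the control level of these 3 genes and lowers their estimates by construction. It also narrows their spread among control mice, so calls and adjusted p values in this fit follow partly from the choice. The share of all genes called in it is not given. The values are a description of how far the results depend on these mice. In WT mice Gjb2 then had a log2 fold change of 2.93 (adjusted p = 0.0005 by edgeR) and Gjb6 of 4.02 (adjusted p = 0.0003 by edgeR). In mice labelled Lcn2-/- all 4 connexins were then called. Gjb2 was higher after IMQ (1.02, adjusted p = 0.0477 by edgeR), Gjb6 was higher (2.27, adjusted p = 0.0040 by edgeR), Gja1 was lower (-0.67, adjusted p = 0.0387 by edgeR) and Gjb5 was lower (-1.23, adjusted p = 0.0236 by edgeR). This left 2 mice in each control group.

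**Figure D2:**
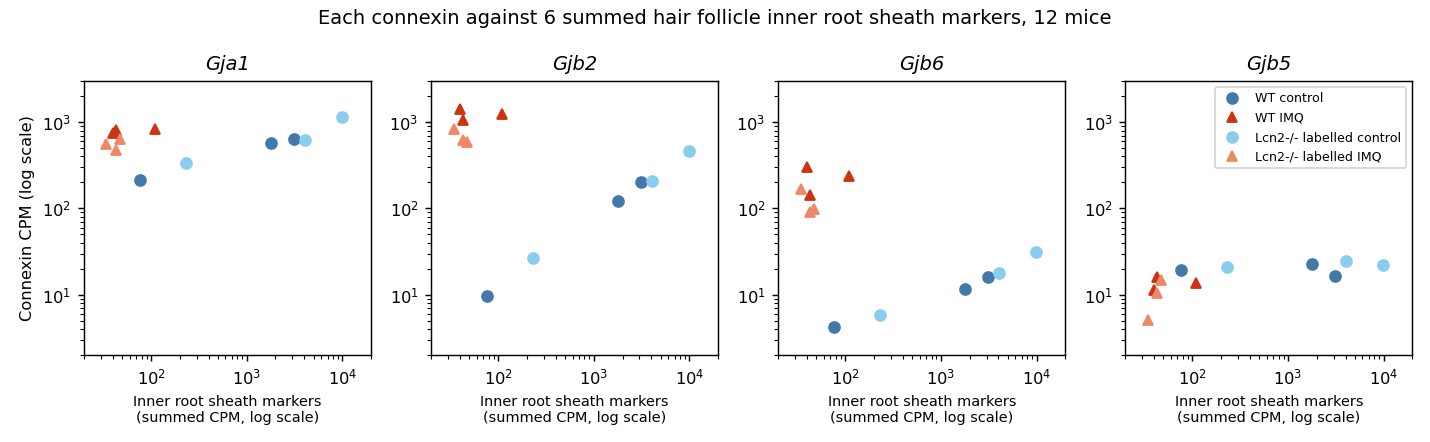
Each connexin (CPM, log scale) against the summed CPM of 6 inner root sheath markers (log scale) in 12 mice, with circles for control mice and triangles for IMQ mice. The circles of Gjb2 and Gjb6 rise from left to right in 1 order, those of Gjb5 stay level, and the triangles stand at the left, between 34.2 and 110 CPM of root sheath markers.

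No member was called between genotypes. After IMQ 0 of 4 connexins differed between mice labelled Lcn2-/- and WT mice, where 4.78% of all genes were called in either direction. All 4 estimates were below 0. Gja1 was -0.54 (SE 0.42, adjusted p = 0.434 by edgeR), Gjb2 was -0.86 (SE 0.96, adjusted p = 0.592), Gjb6 was -0.92 (SE 0.56, adjusted p = 0.311) and Gjb5 was -0.45 (SE 0.30, adjusted p = 0.355). The 3 mice labelled Lcn2-/- lay below the 3 WT mice for Gja1 and for Gjb2, and the groups overlapped for Gjb6 and Gjb5. How many of all genes separated in this way was not counted. Whether Gja1 and Gjb2 were called depended on which mice entered the fit. With edgeR fitted to the 6 IMQ mice alone, Gja1 (-0.52, adjusted p = 0.0472) and Gjb2 (-0.85, adjusted p = 0.0299) were called lower, where 4.81% of genes were called lower. Makeup differed between the same 6 mice. Basal keratinocyte sums stood below those of WT mice with no overlap, and 7 fibroblast markers summed to between 20206 and 20967 CPM in the mice labelled Lcn2-/- and to between 10304 and 10929 CPM in WT mice. Their part in the lower Gja1 and Gjb2 was not tested.

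Without IMQ 0 of 4 connexins differed between the labels, where 0.0108% of genes were called. The estimates were 0.55 for Gja1, 1.06 for Gjb2, 0.78 for Gjb6 and 0.21 for Gjb5, with adjusted p values of at least 0.943 by edgeR, and the groups overlapped for all 4. When the IMQ response of 1 genotype was subtracted from that of the other, 0 of 4 connexins were called, where 2.15% of genes were. It was -1.09 (SE 0.60) for Gja1, -1.93 (SE 1.37) for Gjb2, -1.71 (SE 0.81) for Gjb6 and -0.65 (SE 0.42) for Gjb5, with adjusted p values between 0.224 and 0.408 by edgeR. In all 3 of these comparisons 0 of 4 connexins had an unadjusted p under 0.05 by edgeR, and DESeq2 on all 12 mice called 0 of 4.

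Levels of different genes compare only per length, and dividing by the exon length (giving reads per kilobase of exon in a library of fixed size, RPKM) showed which connexin led. With all annotated exons joined, the 4 genes together stood at 108 ± 63.7 RPKM in WT control mice and 685 ± 97.4 RPKM in WT IMQ mice (SD, n = 3). They stood at 185 ± 137 RPKM in control mice labelled Lcn2-/- and 387 ± 68.9 RPKM after IMQ. Gjb2 made up 34.4% ± 21.3 of this total in WT control mice and 75.1% ± 0.57 in WT IMQ mice. In mice labelled Lcn2-/- its share was 43.0% ± 21.1 without IMQ and 73.0% ± 2.79 with it. The share of Gja1 went the other way, from 46.4% ± 8.46 to 11.6% ± 2.09 in WT mice and from 42.2% ± 12.5 to 14.2% ± 2.92 in mice labelled Lcn2-/-. A share falls when another gene of the total rises, so it does not show a fall in Gja1 itself. Gja1 stood at 46.5 ± 22.5 RPKM in WT control mice and 78.2 ± 3.89 RPKM in WT IMQ mice. In mice labelled Lcn2-/- it stood at 68.2 ± 39.8 RPKM without IMQ and 53.9 ± 7.55 RPKM with it. Gjb6 made up 3.79% ± 0.37 and 12.1% ± 2.70 in WT control and IMQ mice, and Gjb5 made up 15.4% ± 12.7 and 1.20% ± 0.37. In the 6 IMQ mice Gjb2 held between 69.8% and 75.6% of the total, and in the 6 control mice between 10.7% and 58.7%.

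The order of Gja1 and Gjb2 in control skin depended on the length used. Gja1 has 10257 bp of joined exons but 3889 bp in its longest transcript, whereas Gjb2 has 2406 bp by both. By the longest transcript Gja1 made up 68.8% in WT control mice and 64.6% in control mice labelled Lcn2-/-, and Gja1 exceeded Gjb2 in all 6 of these mice. In all 6 IMQ mice Gjb2 exceeded Gja1 by either length, from 4.02 to 7.92 times by joined exons and from 1.53 to 3.00 times by the longest transcript. Gjb6 was between 0.061 and 0.392 times Gjb2 in control mice and between 0.120 and 0.191 times Gjb2 in IMQ mice by joined exons, so that the 2 neighbours kept Gjb2 above Gjb6 in every mouse. Gjb5 was above Gjb2 in the control mice where Gjb2 was lowest and between 0.0084 and 0.0343 times Gjb2 in IMQ mice.

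**Figure D3:**
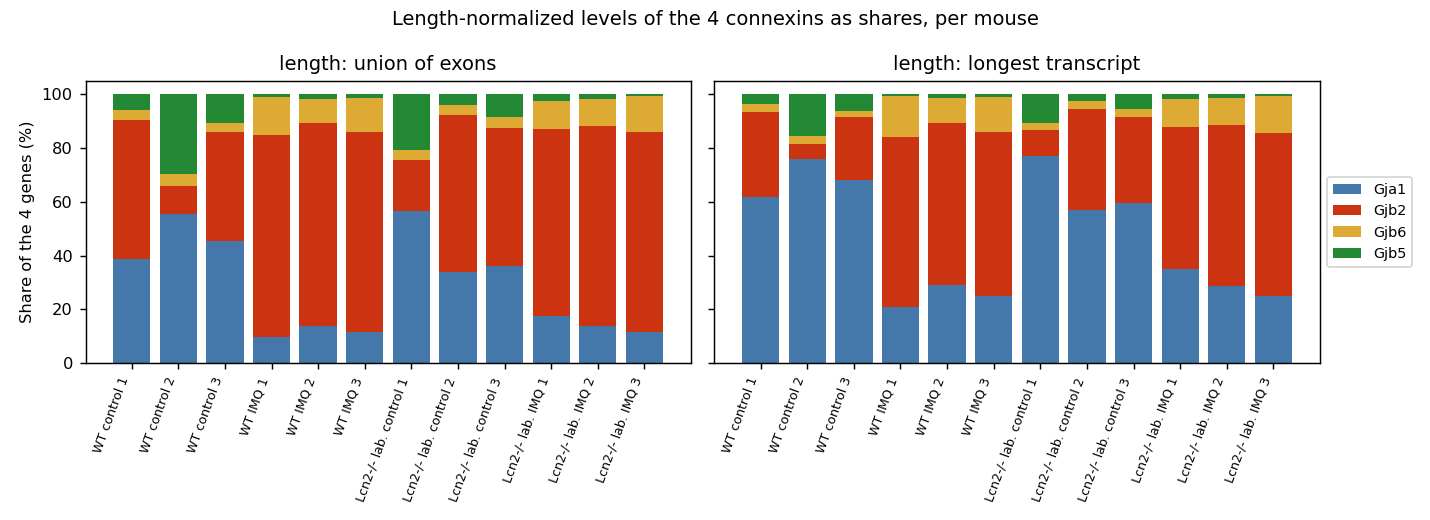
Share (%) of each connexin in the length-normalized sum of the 4 genes, with 1 bar per mouse, by joined exons on the left and by the longest transcript on the right. Gjb2 takes the largest share in all 6 IMQ mice by both lengths, and Gja1 takes the largest share in all 6 control mice by the longest transcript.

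The other connexin genes moved in both directions. Of 16 further connexin genes, 9 had enough reads to be tested. In WT mice 3 were called higher after IMQ and 3 lower (14.2% and 14.3% of all genes), with a median log2 fold change of -0.08 over the 9 (-0.02 over all genes), and in mice labelled Lcn2-/- 4 were higher and 1 lower (14.1% and 11.2% of all genes), with a median of 0.30 (-0.05 over all genes). Without WT control mouse 1, or without any 1 of the WT IMQ mice, 3 of the 9 were called in WT mice. No further connexin was called between genotypes or in the difference of the responses. Gjb1, which encodes Cx32, a connexin of liver and Schwann cells, stood at 0.739, 1.07 and 0.638 CPM in WT control mice and at 9.88, 4.50 and 7.70 CPM in WT IMQ mice. It was 8.90-fold higher in WT mice (log2 fold change 3.15, adjusted p = 0.0010 by edgeR) and 4.35-fold higher in mice labelled Lcn2-/- (2.12, adjusted p = 0.0103 by edgeR). Gjb1 thus rose together with the other beta connexins Gjb2 and Gjb6, at a far lower level.

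Gja5, a connexin of blood vessels, rose in both genotypes, and Gja4 rose in mice labelled Lcn2-/-. Gja5, which encodes Cx40, stood at 4.39, 5.76 and 3.56 CPM in WT control mice and at 10.7, 16.4 and 10.4 CPM in WT IMQ mice. It was 2.72-fold higher in WT mice (log2 fold change 1.44, adjusted p = 0.0089 by edgeR) and 6.35-fold higher in mice labelled Lcn2-/- (2.67, adjusted p = 0.0005 by edgeR). Gja4 was 2.84-fold higher in mice labelled Lcn2-/- (1.51, adjusted p = 0.0010 by edgeR) and was not called in WT mice (0.55, adjusted p = 0.0888 by edgeR). Their 6 endothelial markers summed to between 225 and 428 CPM in control mice, to between 382 and 661 CPM in WT IMQ mice and to between 815 and 843 CPM in the IMQ mice labelled Lcn2-/-, and their part was not tested. Gjc1, which encodes Cx45 and was chosen after its values were seen, was called higher in both (0.47, adjusted p = 0.0498 in WT mice, and 0.86, adjusted p = 0.0035 in mice labelled Lcn2-/-, by edgeR).

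On chromosome 14 the neighbouring connexin genes did not move as 1 block. Gja3, beside Gjb2 and Gjb6, had 33, 0 and 38 reads in WT control mice and 0, 0 and 1 in WT IMQ mice. In mice labelled Lcn2-/- it had 9, 167 and 64 reads without IMQ and 2, 1 and 1 with it. It was called lower in both genotypes (adjusted p = 0.0482 and 0.0217 by edgeR), opposite to its neighbours, and its reads were lowest in the same 2 control mice as Gjb2 and Gjb6.

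Gjc3, which encodes Cx29, a connexin of glia, stood at 4.16, 4.17 and 2.29 CPM in WT control mice and at 1.76, 1.55 and 1.45 CPM in WT IMQ mice. It fell 2.23-fold in WT mice (-1.16, adjusted p = 0.0353 by edgeR) and had an estimate of -0.16 in mice labelled Lcn2-/- (adjusted p = 0.771 by edgeR). The difference between the 2 responses was not called (adjusted p = 0.257 by edgeR).

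**Figure D4:**
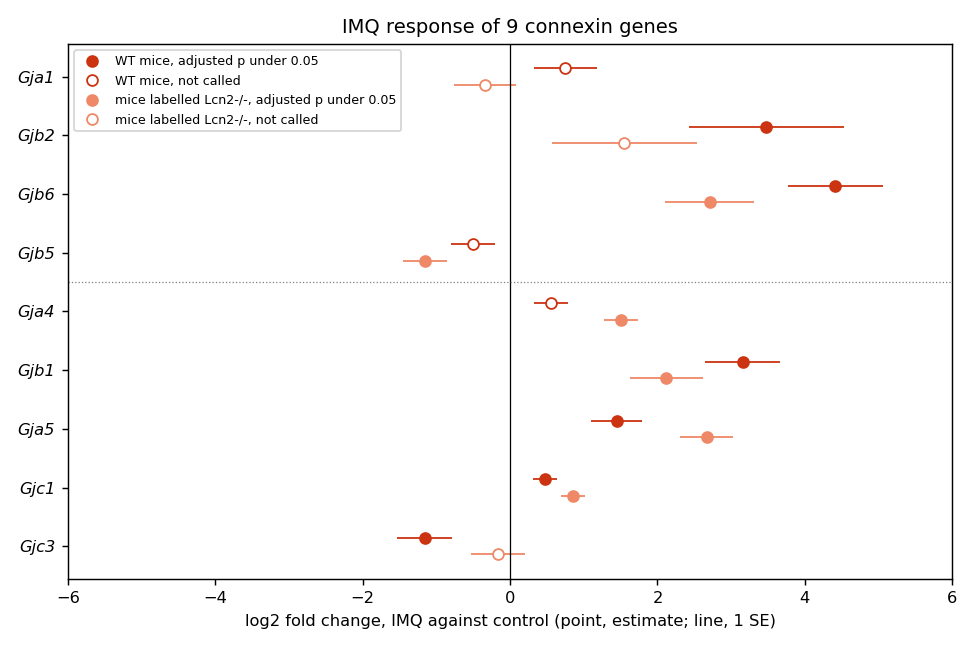
Log2 fold change of IMQ against control skin for the 4 epidermal connexins (above the dotted line) and 5 further connexin genes, in WT mice (dark) and mice labelled Lcn2-/- (light), where lines are 1 SE and filled points have an adjusted p under 0.05 by edgeR. Gjb6, Gjb1, Gja5 and Gjc1 are filled to the right of 0 in both genotypes, and Gjb5 lies to the left in both and is filled only in mice labelled Lcn2-/-.

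Pannexins form similar channels in the membrane of single cells and are not related in sequence. Panx3 fell in both genotypes. It stood at 30.5, 32.1 and 52.9 CPM in WT control mice and at 2.61, 10.7 and 0.581 CPM in WT IMQ mice (log2 fold change -3.09, adjusted p = 0.0066 by edgeR), and the change in mice labelled Lcn2-/- was -1.96 (adjusted p = 0.0475 by edgeR). Panx1 was called in neither (0.37, adjusted p = 0.0852, and 0.08, adjusted p = 0.722, by edgeR), and Panx2 had too few reads to be tested.

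Of 19 tested genes for proteins that bind or handle connexins, 3 were called higher and 3 lower in WT mice, beside 14.2% and 14.3% of all genes, with a median of 0.12. In mice labelled Lcn2-/- 1 was called higher and 2 lower, beside 14.1% and 11.2% of all genes, with a median of -0.06. These counts are near or below the background and are not a result about the list. Ezr, which encodes ezrin, a linker of membrane proteins to actin, rose in both (1.58, adjusted p = 0.0001 in WT mice, and 0.72, adjusted p = 0.0148 in mice labelled Lcn2-/-, by edgeR). Cttn, which encodes the actin regulator cortactin, rose in WT mice (0.61, adjusted p = 0.0041 by edgeR). Dbn1, which encodes drebrin, an actin-binding partner of Cx43, fell in WT mice from 44.0, 45.0 and 37.9 CPM to 15.8, 17.7 and 16.2 CPM (-1.35, adjusted p = 0.0002 by edgeR). It was the 1 gene of the 19 called between genotypes after IMQ, higher in mice labelled Lcn2-/- (0.74, adjusted p = 0.0382 by edgeR). In that comparison 4.78% of all genes were called, so 1 of 19 is near the background. Nedd4, which encodes a ubiquitin ligase that binds Cx43, fell in WT mice (-0.64, adjusted p = 0.0031 by edgeR). Genes of this list named after their values were seen included Ocln (-1.09), which encodes a tight junction protein, in WT mice, and Ocln (-1.68) and the adherens junction gene Ctnnb1 (-0.52) in mice labelled Lcn2-/-.

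The genes whose levels were most like each member differed between members. Over the 12 mice and 15982 genes with a mean of at least 1 CPM, Pearson correlations of log2 CPM were highest for Gjb6 with Fhl2 (0.991), Cemip (0.985) and Ttc22 (0.985), for Gjb2 with Igsf3 (0.969), Lad1 (0.965) and Map4k4 (0.965), for Gja1 with Mfsd2a (0.965), Fam83c (0.964) and Cep164 (0.961), and for Gjb5 with Prkdc (0.947), Flrt1 (0.944) and Zfp202 (0.944). Gjb6 ranked 17 of these genes for Gjb2 (0.940). These values include the differences between the 4 groups. With group means removed, Gja1 was most like St14 (0.985), which encodes the membrane protease matriptase, Galnt3 (0.984) and the zinc transporter gene Slc39a10 (0.983). Gjb2 was most like Crnn (0.985), St14 (0.982) and Smad7 (0.982), and Gjb6 was most like Gabpb1 (0.984), Foxn1 (0.984), which encodes a transcription factor of hair and keratinocyte differentiation, and Ephb3 (0.984). Gjb5 was most like Pdzd4 (0.991), Dapl1 (0.959) and Heph (0.946). Gja1 and Gjb2 correlated with each other at 0.960 in these deviations. These are descriptions over the same 12 libraries, in which control mice supply most of the spread of Gja1, Gjb2 and Gjb6.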

How the data were processed

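Skin RNA of 12 mice (4 groups of 3) was sequenced by the authors as paired reads of 150 bp. The authors deposited 1 table of raw counts, whole reads on each of 56923 Ensembl genes per library, without normalization. The submitters' processing notes name HISAT and the build mm8; the read counter, the annotation and the strand setting are not given in the sources used here. No coordinates were in the table, so names, positions and exon lengths were taken from GENCODE M21 on GRCm38, which holds 52073 of the identifiers (91.5%), and unmatched identifiers hold 0.567% of the counts. Each library was taken as 1 mouse, since the labels number 3 samples in each group and name no pool. Nothing states that they are separate animals, so p-values measure the spread between these samples, part of which may be technical.

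Counts were normalized by TMM and fitted in edgeR 4.0.16 (R 4.3.3) as 4 group means over all 12 mice, with a robust quasi-likelihood test of the 18529 genes passing filterByExpr (minimum count 10, minimum total 15) and Benjamini-Hochberg adjustment over them. The common biological coefficient of variation was 0.253. CPM use TMM library sizes, and 3 counts equal between 0.0985 and 0.202 CPM, which covers counting error only. Totals ranged from 16448226 to 28592110. No library repeated another. The scripts were tested on simulated data.

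Members and lists were chosen with earlier results of these data known. Named genes were the 4 connexins, at most 4 genes of each list by smallest p in the WT response, connexins neighbouring a member, and the 3 genes most like each member. Some genes that this rule names are not reported here, although counts over a list include them. Same-numbered mice did not deviate together (mean correlation -0.051 over 18 pairs, with 1 over 0.1), so replicate numbers were not used as pairs. Alternatives were RLE size factors, DESeq2 1.42.0, no filter, at least 10 counts in every library, the replicate block, edgeR on the compared mice, each mouse left out, the longest transcript as length and, added after seeing the data, omission of 2 control mice. Figures used matplotlib 3.10.9.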

Additional observations from a re-analysis of the deposited data

How the results depend on the processing

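Over the alternatives run, 263 single-connexin estimates kept their direction and side of the threshold, 8 lost a call, 4 gained one and 1 reversed, which was Gja1 in mice labelled Lcn2-/- without control replicate 2 (0.21; the fits that left out 1 mouse gave from -0.67 to 0.21). Most of the 263 were estimates not called with all mice, so this count says little about how firm the calls are. The lost calls included Gjb2 in WT mice in most of the fits that left out 1 WT mouse. With no filter on low counts 1 connexin in place of 2 was called in WT mice, since Gjb2 had an adjusted p of 0.107. The replicate block also left 1 called there (Gjb2, adjusted p = 0.0648 by edgeR) and changed no other call of a member. Leaving out 1 mouse at a time gave 1 to 2 called members in each genotype's IMQ response, 3 to 5 further connexins in WT mice (6 with all mice) and 4 to 5 in mice labelled Lcn2-/-. Without the 2 control mice with the least root sheath RNA 4 members were called in mice labelled Lcn2-/-. These calls follow partly from the choice of mice. With edgeR on the 6 IMQ mice alone 2 were called between genotypes. By the longest transcript the log2 ratio of Gjb2 to Gja1 was 1.31 in WT IMQ mice, -1.49 in control mice and 0.99 in IMQ mice labelled Lcn2-/-, against 2.71, -0.09 and 2.38 by joined exons. The number of mice limits the precision: the SE of the Gjb2 difference between genotypes after IMQ was 0.96 on the log2 scale in the fit to 12 mice.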
